A study of Mus musculus with 2 samples.

Results

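Iron enters most cells bound to transferrin, which the transferrin receptor Tfrc carries into endosomes. There a Steap reductase and the divalent metal transporter Slc11a2 pass the iron to the cytosol, where it is used, stored inside shells of the ferritin chains Fth1 and Ftl1, or exported by ferroportin, Slc40a1. The cytosolic proteins Aco1 (also called IRP1) and Ireb2 (IRP2) sense iron. When iron is scarce they bind hairpins called iron-responsive elements in messenger RNAs, which blocks translation of ferritin and protects the Tfrc message from decay. In the yolk sac, the endoderm is the layer through which the embryo receives iron from its mother.

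The 10 genes described here cover these steps: uptake (Tfrc, Tfr2, Steap3, Slc11a2), storage (Fth1, Ftl1), export (Slc40a1, Heph) and the sensors (Aco1, Ireb2). They were taken by symbol from a table of 26127 genes, in which 9 stand under these names and Tfr2 under its RefSeq synonym Trfr2. RPKM, the unit of the table, is reads per kilobase of gene length and 1000000 reads. The mean over both libraries reached 1 RPKM for 6 of the 10, called measured here, and for 10868 genes in all, called genes tested. The cells were PS10, a female extraembryonic endoderm stem (XEN) cell line of ICR strain, a cultured model of the primitive endoderm, which lines the cavity of the blastocyst. They received, by Lipofectamine RNAiMax, a locked nucleic acid (LNA) either against Gata6-AS, the RNA made antisense to the endoderm factor gene Gata6, or a control LNA. There was 1 library per group, named siRNA-Gata6AS and siRNA-Control in the titles. No test between conditions was therefore possible, and each difference compares a single culture of 1 cell line with another and has no replicate check.

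The libraries were read to a depth of about 1.04e+08 reads for the control LNA and 1.23e+08 for the Gata6-AS LNA, as far as the steps in the RPKM values show. Gata6-AS, carried as 1010001N08Rik, stood at 10.1 RPKM with the control LNA and 5.83 RPKM with the Gata6-AS LNA, and Gata6 at 81.9 and 55.7 RPKM. The spans of this pair, on opposite strands, overlap only at their starts, over a small part of each. Reads within that overlap cannot be assigned to either gene, because the sources used here do not state whether counting used the strand. All 12 markers of XEN cells exceeded 1 RPKM, with a summed level of 4186 RPKM with the control LNA and 3162 RPKM with the Gata6-AS LNA, most of it from the laminin genes Lama1, Lamb1 and Lamc1. Of these markers 8 were lower, Sox7 the most, and 4 were higher: Foxa2 at 102%, Krt8 at 127%, Krt18 at 131% and Dab2 at 140% of control. The summed level of 9 red cell markers was 3.76 and 3.49 RPKM, nearly all from Epor, with Hbb-b1 and Slc4a1 at 0 or near it; that of 7 macrophage markers was 4.27 and 5.22 RPKM, with Ptprc and Emr1 at 0 in both libraries, Csf1r at 2.70 and 3.12 RPKM and Cd68 at 0.737 and 1.31 RPKM; the part of these markers in the results was not tested. The 7 fibroblast markers summed to 0.00541 and 0.0150 RPKM, the 7 trophoblast markers to 1.14 and 1.95 RPKM, and the 7 markers of embryonic stem cells and epiblast, mostly Nanog, to 4.81 and 5.31 RPKM. In such bulk RNA, a change in the share of a cell type and a change in RNA per cell cannot be told apart.

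A sequence search shows which of these messages hold a hairpin shaped like an iron-responsive element, and on which side of the coding sequence. Binding by the sensors was not measured. Transcripts of GENCODE M21 (assembly GRCm38, not the mm9 assembly of the expression table) were searched on the transcribed strand for CNNNNNCAGTG followed by letters that pair with the stem, with 5 of 5 pairs above the bulged C and at least 4 of 5 below it. Such a hairpin was found in 30 of 21877 protein-coding genes (0.137%), and in another form, with 1 extra base in the 3′ upper arm, in 49 (0.224%). Of the 10 iron genes, 5 held a match. The sequences are written 5′ to 3′ with T for U, with the bulged C and the first letters of the loop in capitals. In Fth1 (chromosome 19), Ftl1 (chromosome 7) and Slc40a1 (chromosome 1) the hairpin lies in the 5′ UTR, the place where a bound sensor blocks translation. It starts at base 88 of a Fth1 transcript of 929 bases, at base 79 of a Ftl1 transcript of 968 bases and at base 91 of a Slc40a1 transcript of 3370 bases.
Fth1: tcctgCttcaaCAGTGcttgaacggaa
Ftl1: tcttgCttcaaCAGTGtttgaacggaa
Slc40a1: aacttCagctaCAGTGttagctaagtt

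In Tfrc (chromosome 16) the search found 4 hairpins, all in the 3′ UTR of a transcript of 4890 bases; each is named by its first base. This is the place where a bound sensor protects the message.
Tfrc, base 3316: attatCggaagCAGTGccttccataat
Tfrc, base 3695: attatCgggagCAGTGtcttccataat
Tfrc, base 3760: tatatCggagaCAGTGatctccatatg
Tfrc, base 3807: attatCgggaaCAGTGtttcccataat

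Slc11a2 (chromosome 15) held the form with the extra base, in the 3′ UTR of a transcript of 4415 bases, from base 1798. The hypoxia factor gene Epas1 (chromosome 17), one of the other messages with a known element, held it in its 5′ UTR, from base 70. The expression table gives 1 value per gene, so that Slc11a2 messages with and without the element are not separated in it.
Slc11a2: gccatCagagcCAGTGtgtttctatggt
Epas1: acaatCctcggCAGTGtcctgagactgt

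Ferritin heavy chain, Fth1, had the largest difference of the 6 measured iron genes. It stood at 354 RPKM with the control LNA and 577 RPKM with the Gata6-AS LNA. That is 163% of control, and its exact 95% interval (Clopper-Pearson) runs from 160% to 166%, on no fewer than 15884 and 30716 reads; like all intervals here it covers counting error only, not the variation between cultures. Fth1 carries the ferroxidase centre of ferritin, which oxidises iron on its way into the shell. Its difference of log2(RPKM + 1), Gata6-AS minus control LNA, was 0.70. Ferritin light chain, Ftl1, which helps the mineral core to form, stood at 1314 RPKM with the control LNA and 1370 RPKM with the Gata6-AS LNA, or 104% of control (103.5% to 104.9%, log2 difference 0.059). The intervals of the chains did not overlap, as far as counting error goes: the heavy chain differed more between the libraries than the light chain. The cause was not tested.

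Both ferritin chains were among the most abundant messages in the table. Per length, Ftl1 ranked 9 of 26127 genes with the control LNA and 11 with the Gata6-AS LNA, and Fth1 ranked 99 and 58. The level of Fth1 over that of Ftl1 was 0.269 with the control LNA and 0.421 with the Gata6-AS LNA. Summed, the chains stood at 1669 and 1947 RPKM, so that the Gata6-AS library held 117% of the control level. In mm9, Fth1 lies at chr19:10057193-10059582 on the plus strand and Ftl1 at chr7:52713314-52715254 on the minus strand. The mouse genome holds processed copies of both genes, among them Fth-ps2 and Ftl1-ps2 in GENCODE M21. The sources used here do not state how reads that match several places were counted, so the levels of both chains are uncertain to that extent.

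**Figure D1:**
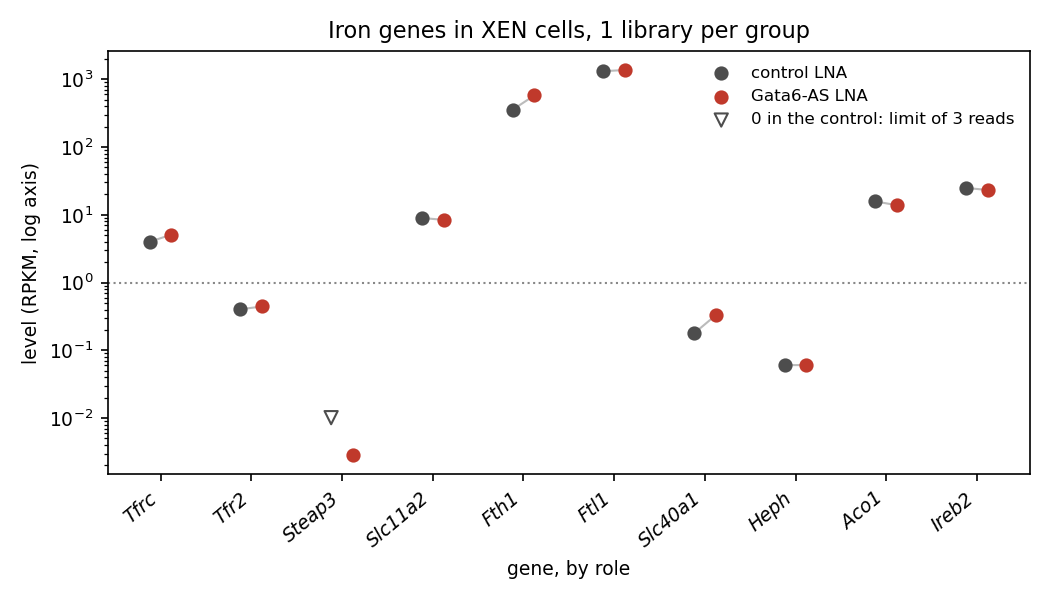
Level of each of the 10 iron genes (RPKM, log axis) in the control library (grey) and the Gata6-AS LNA library (red), 1 library each, ordered by role; the dotted line is 1 RPKM and the open triangle is the limit that 0 reads of Steap3 allow in the control (0.0101 RPKM). The ferritin chains stand at 354 RPKM or more in both libraries and 4 genes stand below 1 RPKM.

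The size of the Fth1 difference can be set against the other genes. None of the 6 measured iron genes was at least 2-fold higher or lower, a size that 0.782% of the 10868 genes tested reached. Fth1 was the 1 measured iron gene at least 1.5-fold apart, against 5.37% of all genes tested in either direction and 3.42% in the higher one. A more positive difference than that of Fth1 was found for 176 of the genes tested. Of 369 abundant genes, those averaging 100 RPKM or more, 4.88% exceeded control by 1.5-fold or more, and 7 had a more positive difference than Fth1. The authors' deposited table of 2099 genes lists Fth1 with a log2 difference of 0.72 (p = 0.0205); the sources used here state neither its test nor any adjustment. That table holds 11.9% of the genes tested, and Fth1 was the 1 of 6 measured iron genes in it.

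**Figure D2:**
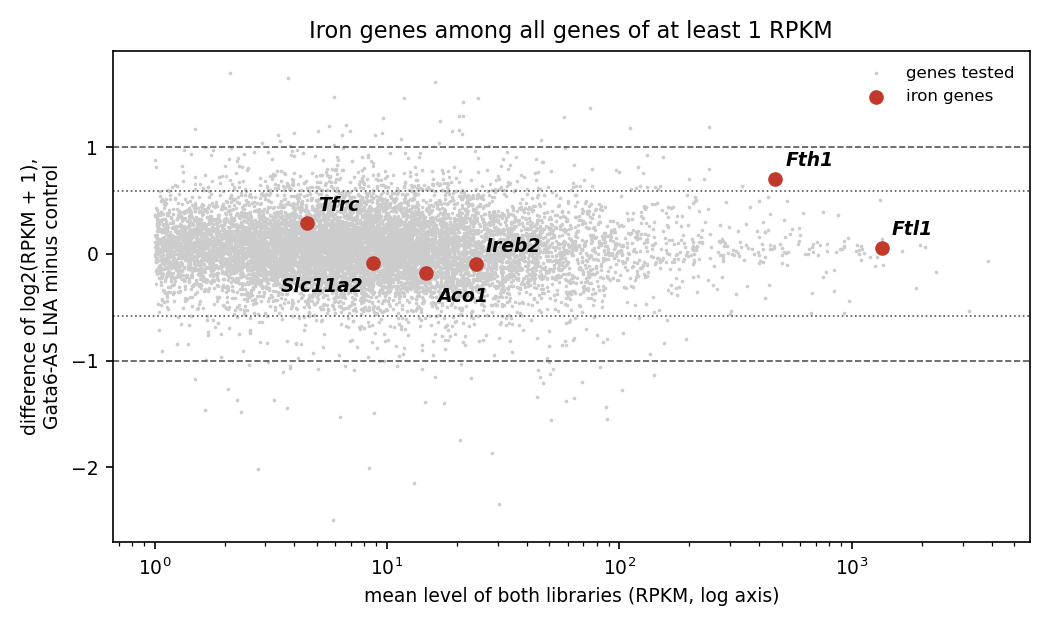
Difference of log2(RPKM + 1), Gata6-AS LNA minus control, against the mean level of both libraries (RPKM, log axis) for 10868 genes (grey) and the 6 measured iron genes (red); dashed and dotted lines mark 2-fold and 1.5-fold. Fth1, at 0.70, lies above the upper 1.5-fold line, and the other 5 lie between -0.18 and 0.29.

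Among the uptake genes, the transferrin receptor Tfrc was higher with the Gata6-AS LNA. It stood at 3.997 RPKM with the control LNA and 5.10 RPKM with the Gata6-AS LNA, or 128% of control (interval 121% to 134%; at least 2560 and 3877 reads; log2 difference 0.29). The quartiles of all genes tested were -0.12 and 0.21, so Tfrc was above the upper one. Tfrc was the least abundant of the measured iron genes in both libraries, at rank 7587 with the control LNA and 6937 with the Gata6-AS LNA. Its position in mm9 is chr16:32609006-32632880 on the plus strand, and that of Tfr2 is chr5:138011079-138028709 on the plus strand. In the Gata6-AS library Tfrc and Fth1, messages that carry the hairpin on opposite sides of the coding sequence, were both above control. Any part of the sensors in these levels was not tested.

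The metal transporter Slc11a2, which moves ferrous iron across the endosomal and the plasma membrane, stood at 8.99 RPKM with the control LNA and 8.40 RPKM with the Gata6-AS LNA. Its level was 93.5% of control, with an interval of 90.2% to 96.9% (at least 5915 and 6565 reads; log2 difference -0.087), between the quartiles of all genes tested. It lies at chr15:100218329-100255503 on the minus strand, where Gm5475 overlaps it on the plus strand at 0.0832 and 0.0942 RPKM. The second transferrin receptor, Tfr2, known from liver and red cell precursors as a sensor of iron-loaded transferrin, was low, at 0.402 and 0.445 RPKM. Its interval, 86.7% to 141% of control from at least 122 and 160 reads, includes 100%. Per length, the control library held 9.93 times as much Tfrc as Tfr2 and the Gata6-AS library 11.5 times as much.

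Steap3, the endosomal ferric reductase of red cell precursors, was listed at 0 with the control LNA and at 0.00285 RPKM with the Gata6-AS LNA, on at least 1 read. A count of 0 over the shortest length that fits this value allows up to 0.0101 RPKM in the control. Other members of the Steap family were also low. Steap1 stood at 0.0351 RPKM with the control LNA and 0.148 RPKM with the Gata6-AS LNA, on at least 5 and 25 reads. Its interval was wide, from 158% to 1409% of control. The authors' deposited table gives Steap1 a log2 difference of 1.93 (p = 0.0147, test not stated). Steap2 stood at 0.0732 and 0.0811 RPKM, and Steap4 at 0 in both. In mm9, Steap3 lies at chr1:122087334-122169282 on the minus strand. No Steap gene thus reached 1 RPKM in either library of these cells.

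Export genes were low in both libraries. Ferroportin, Slc40a1, the known cellular iron exporter of mammals, stood at 0.177 RPKM with the control LNA and 0.330 RPKM with the Gata6-AS LNA. These values rest on at least 62 and 137 reads, and the level was 186% of control with an interval of 137% to 255%. On the log2(RPKM + 1) scale, which understates differences of low genes, this is 0.18. The authors' deposited table lists Slc40a1 with a log2 difference of 0.77 (p = 0.0649), the other of the 10 genes found there. Slc40a1 lies at chr1:45964915-45982439 on the minus strand, and Heph at chrX:93650698-93769824 on the plus strand. The start of Heph overlaps Hsf3, listed at 0, on the minus strand. Hephaestin, Heph, a membrane ferroxidase that works with ferroportin in the intestine, stood at 0.0605 RPKM in both libraries, from at least 16 and 19 reads, and its interval of 48.7% to 208% of control includes 100%.

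**Figure D3:**
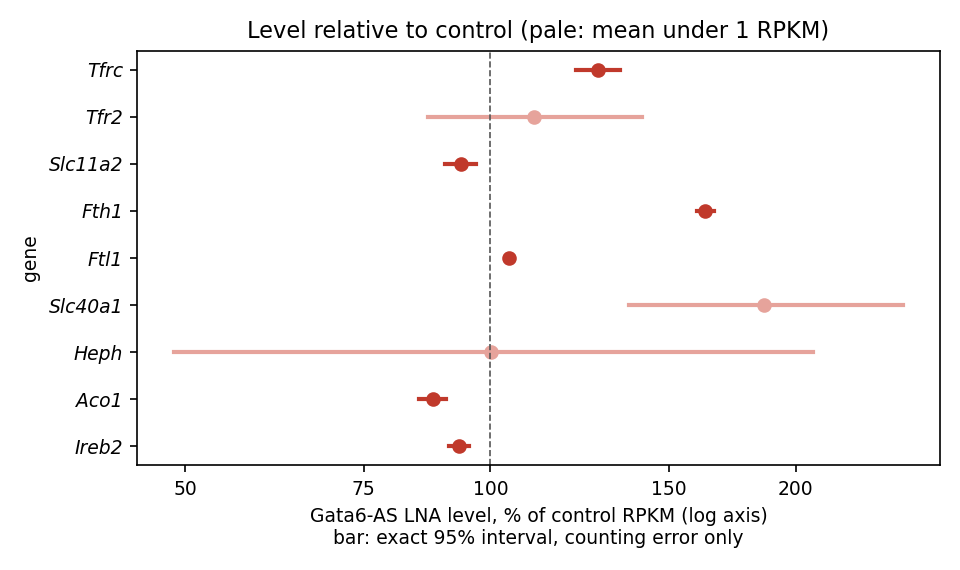
Level in the Gata6-AS LNA library as a percentage of the control RPKM (log axis) for the 9 iron genes above 0 in the control, with the exact 95% interval from the least numbers of reads (counting error only); pale points had a mean below 1 RPKM. Fth1 (163%), Slc40a1 (186%), Tfrc (128%) and Ftl1 (104%) lie above 100% with their intervals, and Slc11a2, Aco1 and Ireb2 lie below it with theirs. The intervals of Tfr2 and Heph include 100%, that of Heph running from 48.7% to 208%.

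Both sensors were somewhat lower with the Gata6-AS LNA. Aco1, an aconitase that becomes an RNA-binding protein when it loses its iron-sulfur cluster, stood at 15.8 RPKM with the control LNA and 13.8 RPKM with the Gata6-AS LNA. Its level was 87.7% of control, with an interval of 85.1% to 90.4% (at least 8480 and 8828 reads), and its log2 difference of -0.18 was below the lower quartile of all genes tested. Ireb2, which is degraded when iron is plentiful, stood at 24.9 and 23.2 RPKM, or 93.1% of control (interval 91.02% to 95.1%; at least 14992 and 16563 reads; log2 difference -0.10). The Ireb2 difference lay between the quartiles of all genes tested. Per length, Ireb2 was the more abundant sensor message in both libraries, at 1.58 times Aco1 with the control LNA and 1.68 times with the Gata6-AS LNA. Aco1 lies at chr4:40090114-40146042 and Ireb2 at chr9:54711562-54760341, both on the plus strand. The F-box protein Fbxl5, which marks Ireb2 for degradation when iron is present, stood at 6.51 and 7.58 RPKM (log2 difference 0.19).

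Taken over the 6 measured iron genes, 3 were higher and 3 lower with the Gata6-AS LNA, with a median log2 difference of -0.014. Over all genes tested the median was 0.048, and 58.0% were higher. The 4 genes below 1 RPKM are not in this count.

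Other genes of iron metabolism were read from 5 lists. Of 88 such genes matched, 68 were measured, 35 of them higher and 33 lower, with a median of 0.0033; none was 2-fold apart on the log2(RPKM + 1) scale (0.782% of all genes tested), 3 were at least 1.5-fold higher (3.42% of all) and 1 was at least 1.5-fold lower (1.95% of all), shares near those of all genes. By the ratio of the RPKM values alone, Nubp2, a factor of cytosolic iron-sulfur cluster assembly, also passed 1.5-fold, at 8.76 RPKM with the control LNA and 13.6 RPKM with the Gata6-AS LNA (155% of control; log2 difference 0.58). The authors' deposited table, with 2099 genes against 26127 with RPKM values, lists 7 of the 88. Of the 68 measured it lists 4, while it holds 11.9% of all genes tested. The other 3 listed were the low genes Neo1, Steap1 and Tmprss6. In the transferrin cycle and systemic control, 8 of 20 genes were measured, with 2 higher, 6 lower and a median of -0.17. The clathrin adaptor Picalm, which takes part in uptake of the transferrin receptor, had the most negative difference there, at 32.9 RPKM with the control LNA and 24.4 RPKM with the Gata6-AS LNA (-0.41). Transferrin itself, Trf, which the visceral endoderm secretes, stood at 19.3 and 16.4 RPKM (-0.22), and the duodenal ferric reductase Cybrd1, with the most positive difference, at 3.12 and 3.42 RPKM (0.10). The hepcidin genes Hamp and Hamp2 stood at or below 0.0415 RPKM in both libraries, and Hfe and Hfe2 were listed at 0.

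Among genes of intracellular iron handling, 13 of 16 were measured, with 5 higher, 8 lower and a median of -0.041. Cisd1, an iron-sulfur protein of the outer mitochondrial membrane, had the most positive difference, at 20.5 RPKM with the control LNA and 30.1 RPKM with the Gata6-AS LNA (0.53). Mcoln1, an ion channel of the lysosome, had the most negative one, at 20.7 and 15.8 RPKM (-0.37). Ncoa4, the receptor that delivers ferritin to autophagosomes for breakdown, stood at 119 RPKM with the control LNA and 95.02 RPKM with the Gata6-AS LNA (-0.32). Any link with the levels of the ferritin messages was not tested. The mitochondrial iron importer genes went unequally: Slc25a28 stood at 10.2 and 14.4 RPKM (0.46), and Slc25a37 at 17.2 and 16.6 RPKM (-0.05).

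Of 19 genes of haem synthesis and breakdown, 18 were measured, with 11 higher, 7 lower and a median of 0.087. The share higher was 61.1%, against 58.0% of all genes tested. The median becomes 0.039 when the median of all genes tested is set to 0. The largest differences were those of 2 enzymes of the synthesis pathway. Cpox, coproporphyrinogen oxidase, stood at 10.03 RPKM with the control LNA and 16.9 RPKM with the Gata6-AS LNA, or 168% of control (161% to 175%; log2 difference 0.70). Alad, which makes porphobilinogen, stood at 10.04 and 16.1 RPKM, or 161% (152% to 170%; 0.63). The authors' deposited table lists Cpox (p = 0.00904) and Alad (p = 0.0283). The rate-limiting enzyme Alas1 stood at 5.35 and 5.99 RPKM (0.14), ferrochelatase, Fech, which puts iron into haem, at 13.8 and 14.1 RPKM (0.03), and haem oxygenase, Hmox1, which releases it, at 28.3 and 26.8 RPKM (-0.08). Pgrmc1, a haem-binding membrane protein, had the most negative difference (-0.29).

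Of 24 genes of iron-sulfur cluster assembly, 23 were measured, with 14 higher, 9 lower and a median of 0.035, which becomes -0.013 when the median of all genes tested is set to 0. Ferredoxin reductase, Fdxr, which supplies electrons to this process, stood at 3.77 RPKM with the control LNA and 6.35 RPKM with the Gata6-AS LNA (168% of control, 156% to 181%; log2 difference 0.62), and is also listed in the authors' deposited table (p = 0.0318). The co-chaperone Hscb had the most negative difference, at 15.4 and 11.7 RPKM (-0.36). Iscu, the scaffold on which clusters are built, stood at 8.37 and 8.60 RPKM (0.04).

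Among 10 other messages with a known iron-responsive element, 6 were measured, with 3 higher, 3 lower and a median of -0.040. Epas1, which encodes the alpha subunit of a hypoxia-inducible factor and carries the hairpin shown above, had the most negative difference of the 68 other iron genes. It stood at 199 RPKM with the control LNA and 111 RPKM with the Gata6-AS LNA, or 55.9% of control (interval 55.2% to 56.6%; at least 64035 and 42499 reads), a log2 difference of -0.83. A difference of at least 1.5-fold lower was found for 1.95% of all genes tested. In the authors' deposited table its log2 difference is -0.90 (p = 0.00134). Pfn2 had the most positive difference in this list (0.22). Among messages in which the search found the element in the 5′ UTR, Fth1 stood at 163%, Slc40a1 at 186% and Ftl1 at 104% of control. Alas2 stood at 64.3% and Epas1 at 55.9%. Slc40a1 and Alas2 had means below 1 RPKM. A sensor bound at this place acts on translation, and any part of the sensors in these RNA levels was not tested.

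**Figure D4:**
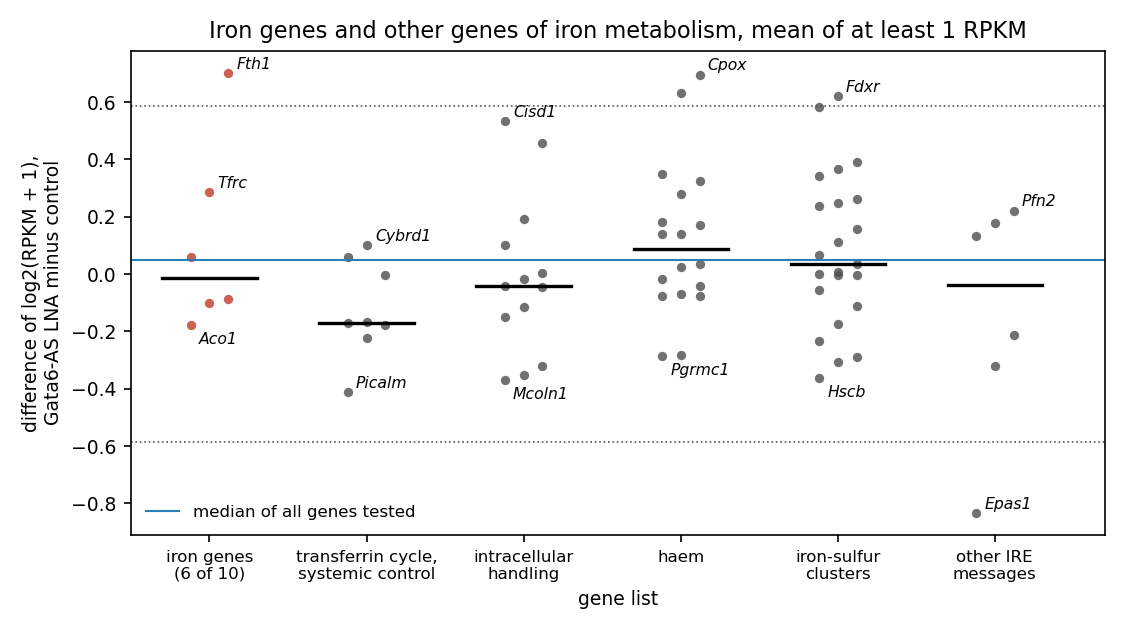
Difference of log2(RPKM + 1), Gata6-AS LNA minus control, for measured genes of the 6 iron groups; each point is a gene, black bars are medians, the blue line is the median of all genes tested (0.05) and dotted lines mark 1.5-fold. Fth1, Cpox, Alad and Fdxr lie above the upper dotted line and Epas1 lies below the lower one.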

How the data were processed

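The authors' deposited table gives RPKM values per gene for both libraries, per the file headers; TopHat and mm9 are named in the submitters' processing notes. The sources used here do not state the counting tool or the annotation. A second deposited table holds the authors' log2 values and differences and the authors' p-value for 2099 genes, the largest p being 0.0750; no source used here says how these were computed.

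The members and the gene lists were chosen with earlier results of these data known. Libraries were compared by log2(RPKM + 1), Gata6-AS minus control LNA, for rows with a mean of at least 1 RPKM; 1 small RNA host row was left out. Symbols were matched directly or through RefSeq synonyms (GRCm38.p6, names only). Depth was found from genes with a span under 3000 bp whose RPKM times length is a whole number of steps (829 control, 886 depleted). For each gene the smallest read numbers, in whole reads, from which both RPKM values follow at 1 length (up to 30000 bp, relative tolerance 3e-07 plus 0.0002 reads) gave the exact 95% interval of the ratio. This procedure was tested on simulated data. PCR reads are not independent molecules, so intervals and the floor of 3 reads cover counting error only.

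Named were all 10 members and, in each other list, genes past 1.5-fold and those with the extreme differences. Fbxl5, Trf, Ncoa4, Slc25a28, Slc25a37, Alas1, Fech, Hmox1, Iscu, Nubp2, Neo1, Tmprss6, the Steap and hepcidin genes, Hfe and Hfe2 were chosen after their values were seen; other list members are given by counts and medians. Alternatives were other pseudocounts, filters, scalings and a 1.5-fold rule. Scripts used Python 3.11.15, numpy 2.4.6, pandas 2.3.3 and scipy 1.17.1.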

Additional observations from a re-analysis of the deposited data

How the results depend on the processing

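With 1 library per group, no replicate could be left out, and no paired analysis was possible because the groups share no pair of replicates. Fth1 stayed at least 1.5-fold higher under each pseudocount, filter and scaling tried. With the median difference of genes tested set to 0, the log2 differences were 0.65 for Fth1, 0.011 for Ftl1, -0.14 for Slc11a2, -0.23 for Aco1 and -0.15 for Ireb2. With equal summed RPKM, Fth1 was at 0.67 and Ftl1 at 0.031. No iron gene was 2-fold apart in any of these settings; at 1.5-fold it was 1 gene, against 372 higher and 212 lower genes in all (36 and 49 at 2-fold). A pseudocount of 0.1 gave 92 higher and 81 lower genes, and one of 0.5 gave 59 higher. With a pseudocount of 0.1, Slc40a1 was at 0.63.

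The median of the iron genes was -0.062 after centring, -0.040 with equal sums, 0.023 with no filter and -0.087 above 5 RPKM, so its sign depends on the filter. For the transferrin list the median was -0.19 and -0.18 with pseudocounts of 0.1 and 0.5, -0.22 centred, -0.19 with equal sums, -0.014 unfiltered and -0.17 above 5 RPKM. For intracellular handling it was -0.047 and -0.046 with the pseudocounts, -0.089 centred, -0.061 with equal sums and -0.029 unfiltered. For haem genes it was 0.099 and 0.093 with the pseudocounts, 0.039 centred, 0.062 with equal sums, 0.035 unfiltered and 0.035 above 5 RPKM. For iron-sulfur genes it was -0.013 centred, 0.010 with equal sums and 0.020 above 5 RPKM. For the other messages with the element it was -0.092 and -0.070 with the pseudocounts, -0.088 centred, -0.061 with equal sums, -0.048 unfiltered and -0.092 above 5 RPKM. The cause of these moves was not tested. The least numbers of reads, 0 to 160, limit Steap3, Heph, Slc40a1 and Tfr2.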
